A study of Mus musculus with 9 samples.

Results

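Matrix glycoproteins and small proteoglycans are described here through 10 genes, all found by symbol among the 23337 genes of the deposited table: Fn1, Tnc, Spp1, Postn, Thbs1, Thbs2, Lum, Dcn, Bgn and Sparc. All 10 passed the filter on low counts and belong to the 13141 genes tested. Messenger RNA of whole liver was sequenced in 9 C57BL/6 mice, which began a high-fat diet at 6 to 8 weeks of age and stayed on it for 16 weeks. The 3 mice with genotype PAR2fl/fl carry floxed, intact alleles of the gene for protease-activated receptor 2 (PAR2) and are called WT. The 3 PAR2dHep mice (dHep) are described as lacking the receptor in hepatocytes, the main cell of the liver. The 3 PAR2 KO mice (KO) are described as lacking it in all tissues. Every group received the diet, so no group shows the liver on standard food. The Cre driver, the deleted part of the gene, the sex of the mice and their litters are not given in the sources used here.

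The extracellular matrix is the scaffold outside cells, and in the liver most of it is laid down by stellate cells and portal fibroblasts. Glycoproteins of this scaffold link collagen to cells: fibronectin (Fn1) and osteopontin (Spp1) are bound by integrins, and tenascin-C (Tnc), periostin (Postn), the thrombospondins (Thbs1, Thbs2) and Sparc are matricellular proteins, which tune cell adhesion more than they bear load and are typically raised in injured tissue. Lumican (Lum), decorin (Dcn) and biglycan (Bgn) are small leucine-rich proteoglycans, which bind collagen fibrils and set their spacing. Hepatocytes themselves secrete plasma fibronectin, and bile duct cells and macrophages are known sources of osteopontin.

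Between 18683660 and 30509242 reads were assigned to genes per library, and the markers of hepatocytes summed to 93644 to 145252 CPM (reads scaled to a library of 1000000). Transcripts of the pancreas stood apart in WT replicate 1 and dHep replicate 2, where 10 acinar genes summed to 412 and 1662 CPM, against 12.5 to 84.7 CPM in the other libraries. In those other libraries the sum was mostly Cela1, at 10.4 to 83.4 CPM, and no other acinar gene was above 1.15 CPM (Cela2a in KO replicate 3). Skeletal muscle genes summed to 669 CPM in dHep replicate 2 and to at most 60.7 CPM elsewhere. F2rl1, which encodes PAR2, had 17, 27 and 28 reads in WT and 2, 8 and 0 in dHep. It had 71, 103 and 76 reads in the libraries labelled KO, with a log2 fold change against WT of -2.73 in dHep (edgeR adjusted p = 0.0164) and 2.22 in the libraries labelled KO (adjusted p = 0.00735). The F2rl1 call in dHep ended without WT replicate 2, WT replicate 3 or dHep replicate 1 (edgeR adjusted p up to 0.0620), and its log2 fold change ran from -4.59 to -2.27 over the alternatives, moving by over 1.5 times without dHep replicate 2. Counts of the targeted gene were therefore not lower where the label names its loss in the whole body, and every direction below for that group is that of libraries labelled KO (KO-labelled livers). Reads over the deleted part of the gene were not separated, since the table counts whole genes.

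Levels of different genes were set side by side per length, as CPM per kb of gene, with TMM-scaled library sizes (a correction for differences in library composition). In WT livers Fn1 was highest with a level of 169 ± 8.43 (SD, n = 3), followed by Dcn with 139 ± 3.96 and Spp1 with 91.9 ± 22.4. Bgn stood at 65.1 ± 0.610, Sparc at 55.1 ± 4.01, Postn at 13.7 ± 0.848 and Lum at 10.1 ± 1.13 on this scale. Thbs1 (1.51 ± 0.166), Tnc (1.45 ± 0.210) and Thbs2 (1.33 ± 0.0793) were lowest, and these last 3 levels overlapped between neighbours, while all neighbours above them were separate in the 3 WT mice.

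The order changed in its middle and at its end. In dHep livers Spp1 stood at place 5 rather than 3, at 26.2 ± 4.22 CPM per kb, where it overlapped Sparc (26.7 ± 1.55). Lum and Postn also overlapped in both mutant groups, with levels of 4.80 ± 1.80 and 4.68 ± 2.61 in dHep and 3.07 ± 0.542 and 2.73 ± 0.439 in KO-labelled livers. Tnc was last in both, at 0.121 ± 0.00875 and 0.142 ± 0.0377. Fn1 made up 30.8% ± 1.00 of the summed level of the 10 genes in WT, 45.2% ± 2.58 in dHep and 54.7% ± 6.92 in KO-labelled livers (SD, n = 3).

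**Figure D1:**
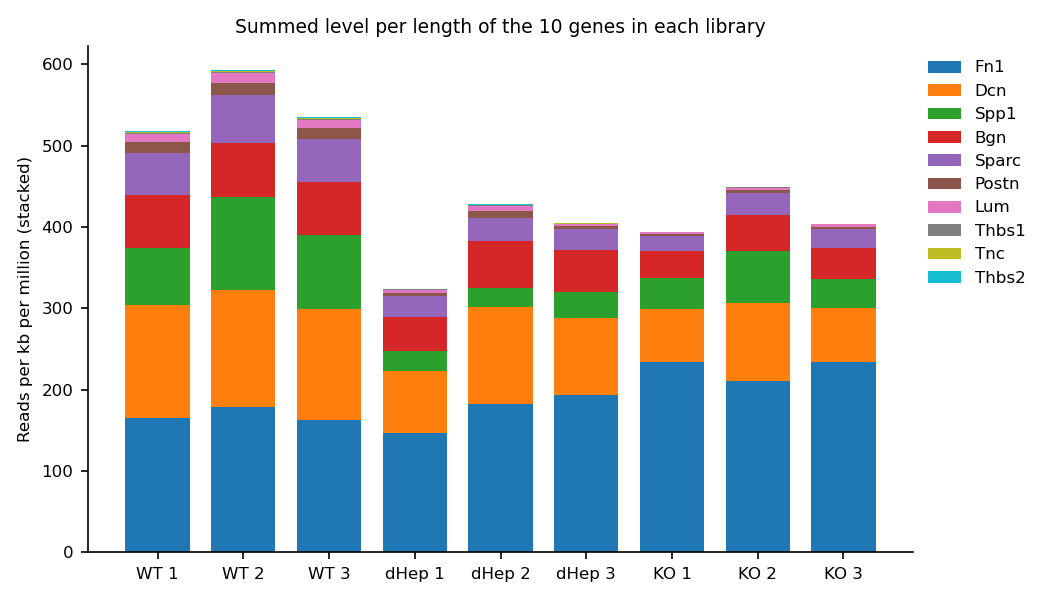
Stacked bars give the level per length (CPM per kb, y axis) of each of the 10 genes in each of the 9 libraries (x axis; KO is the label). Without Fn1 the 9 other genes sum to between 352 and 415 in WT, between 177 and 245 in dHep and between 159 and 239 in KO-labelled livers, while the Fn1 segment spans 147 to 235 over all 9 libraries.

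In the genome these genes lie on 9 chromosomes of mm10. Fn1 spans positions 71585523 to 71653171 of chromosome 1 and Tnc 63959785 to 64047015 of chromosome 4. Spp1 lies at 104435111 to 104441053 of chromosome 5, Postn at 54361107 to 54391041 of chromosome 3 and Thbs1 at 118111922 to 118127133 of chromosome 2. Thbs2 lies at 14665500 to 14694262 of chromosome 17, Sparc at 55394501 to 55420080 of chromosome 11 and Bgn at 73483635 to 73495936 of chromosome X. Dcn (97479500 to 97518162) and Lum (97565501 to 97572703) share chromosome 10 and the plus strand, with a gap of 47338 bases between them.

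RefSeq promoter windows matched 6 of the 10 genes: Tnc, Spp1, Postn, Thbs2, Bgn and Sparc. Printed here are the 250 bases before the annotated start (GRCm38.p6, the assembly also called mm10) for Tnc, which had the largest falls, for Postn and Spp1, whose changes against WT ranked differently in dHep and in KO-labelled livers, and for Bgn, which had the smallest change of the 6. Capitals mark TATAAA or CCAAT on either strand. For Bgn the RefSeq start lies 34 bases from the start in the deposited table.
Tnc, chr4:64047016-64047265, minus strand: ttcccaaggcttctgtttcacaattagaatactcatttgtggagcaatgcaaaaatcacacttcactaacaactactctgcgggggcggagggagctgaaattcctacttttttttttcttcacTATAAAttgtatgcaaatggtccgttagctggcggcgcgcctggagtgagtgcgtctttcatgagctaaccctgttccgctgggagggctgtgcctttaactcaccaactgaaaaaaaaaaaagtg
Postn, chr3:54360857-54361106, plus strand: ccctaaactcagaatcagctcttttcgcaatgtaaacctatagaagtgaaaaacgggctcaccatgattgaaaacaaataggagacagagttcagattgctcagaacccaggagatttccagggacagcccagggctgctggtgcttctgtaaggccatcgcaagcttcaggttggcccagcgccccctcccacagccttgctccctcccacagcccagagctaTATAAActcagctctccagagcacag
Spp1, chr5:104434861-104435110, plus strand: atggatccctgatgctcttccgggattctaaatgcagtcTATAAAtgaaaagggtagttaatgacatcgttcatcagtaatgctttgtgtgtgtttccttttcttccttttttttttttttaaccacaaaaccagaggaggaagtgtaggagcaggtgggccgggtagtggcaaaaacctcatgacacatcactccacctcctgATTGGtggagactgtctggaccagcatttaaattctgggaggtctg
Bgn, chrX:73483351-73483600, plus strand: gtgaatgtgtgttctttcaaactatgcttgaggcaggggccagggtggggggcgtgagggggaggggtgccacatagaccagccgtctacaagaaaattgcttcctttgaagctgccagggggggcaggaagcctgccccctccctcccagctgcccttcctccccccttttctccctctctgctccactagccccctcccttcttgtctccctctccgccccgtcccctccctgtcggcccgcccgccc
The letters TATAAA were present in 4 of the 6 windows (Tnc, Spp1, Postn and Thbs2) and in 12.4% of the 32851 windows of the same length over all genes. In Postn they began 26 bases before the start, in Tnc 126 and in Spp1 211. CCAAT was present in Spp1 and Thbs2 and in 33.8% of all windows. No window of the 6 held TGANTCA (AP-1; 6.75% of all windows), GGAATG (TEAD; 12.6%), GTCTAGAC (SMAD; 0.167%) or a CArG box (1.47%). Both strands were searched, and no matches overlapped each other in these 6 windows. Such matches describe letters in a window and are not binding sites.

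The comparison of dHep with WT asks how the liver differs when hepatocytes lack PAR2. Of the 10 genes, 7 fell and 0 rose in dHep (edgeR quasi-likelihood test, adjusted p under 0.05), where 24.3% of all genes tested were called, 11.9% lower and 12.4% higher. At an unadjusted p under 0.05, 9 were lower and 0 higher, and the share of all genes at that threshold is not given here. DESeq2 called 8 lower and 0 higher, and over all genes tested it called 13.5% lower and 14.9% higher. Tnc fell most, 11.9-fold, and Thbs1, Spp1 and Postn fell 3.77-fold, 3.52-fold and 2.93-fold. Sparc and Thbs2 fell 2.07-fold and 1.95-fold and Lum fell by 1.07 on the log2 scale, while Dcn, Bgn and Fn1 did not pass the test. The median log2 fold change of the 10 was -1.06, against 0.02 for all genes tested. In whole liver, fewer cells of a type and less RNA per cell cannot be told apart.

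Tenascin-C, a large glycoprotein that is scarce in healthy adult tissue, had 10.3, 11.8 and 8.81 CPM in the 3 WT libraries and 0.899, 0.883 and 0.785 CPM in dHep. These values rest on 247 to 318 reads in WT and 16 to 30 in dHep. The highest dHep library lay far below the lowest WT library, and the log2 fold change was -3.58 ± 0.23 (SE; edgeR adjusted p = 7.69e-05). Osteopontin, Spp1, stood at 116, 190 and 151 CPM in WT and at 40.7, 38.1 and 51.3 CPM in dHep. All dHep libraries were below all WT libraries although WT varied 1.64-fold, with a log2 fold change of -1.81 ± 0.25 (edgeR adjusted p = 0.00184).

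Periostin, which cross-links collagen through its partners, had 42.3, 47.9 and 45.4 CPM in WT and 9.41, 25.3 and 11.6 CPM in dHep. Replicate 2 was the high library of dHep, and the groups still did not overlap (log2 fold change -1.55 ± 0.32, edgeR adjusted p = 0.00850). Thrombospondin-1, an activator of latent TGF-beta that platelets also carry, showed 7.78, 9.71 and 8.73 CPM in WT and 1.44, 4.42 and 1.08 CPM in dHep. Again replicate 2 was high in dHep, and the log2 fold change was -1.91 ± 0.43 (edgeR adjusted p = 0.0127). Without dHep replicate 2 Thbs1 fell by 2.77 on the log2 scale (adjusted p = 0.000339) and Postn had a log2 fold change of -2.11 (adjusted p = 0.000298). Without WT replicate 2 the call for Thbs1 ended (edgeR adjusted p = 0.0519, log2 fold change -1.83; range of adjusted p over the alternatives 8.84e-05 to 0.0519).

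Thrombospondin-2 lacks the TGF-beta activating function of its paralog. Thbs2 had 7.40, 8.34 and 7.81 CPM in WT and 4.95, 4.66 and 2.35 CPM in dHep, with replicate 3 lowest. Its log2 fold change was -0.97 ± 0.26 (edgeR adjusted p = 0.0256). Leaving out any of WT replicates 1, 2 or 3 ended the call (edgeR adjusted p = 0.0608, 0.0930 and 0.0821; range over the alternatives 0.00412 to 0.0930).

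Among the small proteoglycans, lumican had 20.1, 23.6 and 19.1 CPM in WT and 9.44, 13.9 and 6.52 CPM in dHep, a log2 fold change of -1.07 ± 0.25 (edgeR adjusted p = 0.0140). Leaving out WT replicate 2 ended this call (edgeR adjusted p = 0.0611; range 0.000439 to 0.0611). Decorin, which binds and holds TGF-beta, had 288, 300 and 284 CPM in WT and 158, 249 and 198 CPM in dHep. Biglycan, its close relative and a ligand of Toll-like receptors, had 156, 157 and 154 CPM in WT and 99.1, 139 and 126 CPM in dHep. In both, every dHep library was below every WT library, but neither passed: the log2 fold change was -0.52 for Dcn (95% interval -0.95 to -0.10, edgeR adjusted p = 0.0704) and -0.36 for Bgn (95% interval -0.68 to -0.035, edgeR adjusted p = 0.0997).

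Dcn passed under 5 of 16 alternatives, among them DESeq2 (adjusted p = 0.0392) and leaving out dHep replicate 2 (log2 fold change -0.70, edgeR adjusted p = 0.0216; range 0.0216 to 0.176). Bgn passed only without dHep replicate 2 (log2 fold change -0.47, edgeR adjusted p = 0.0449; range 0.0449 to 0.219). Sparc, a collagen-binding protein that assists collagen secretion and assembly, varied little between the 3 dHep mice, with 61.2, 65.0 and 57.9 CPM against 120, 137 and 123 CPM in WT. Its log2 fold change was -1.05 ± 0.13 (edgeR adjusted p = 0.00107). Fibronectin had 1377, 1485 and 1354 CPM in WT and 1222, 1515 and 1607 CPM in dHep. The 2 groups overlapped, and the log2 fold change was 0.04 (95% interval -0.28 to 0.36, edgeR adjusted p = 0.852). In 9 of the 10 genes the dHep and WT libraries did not overlap, with dHep lower, as in 22.6% of all genes tested.

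**Figure D2:**
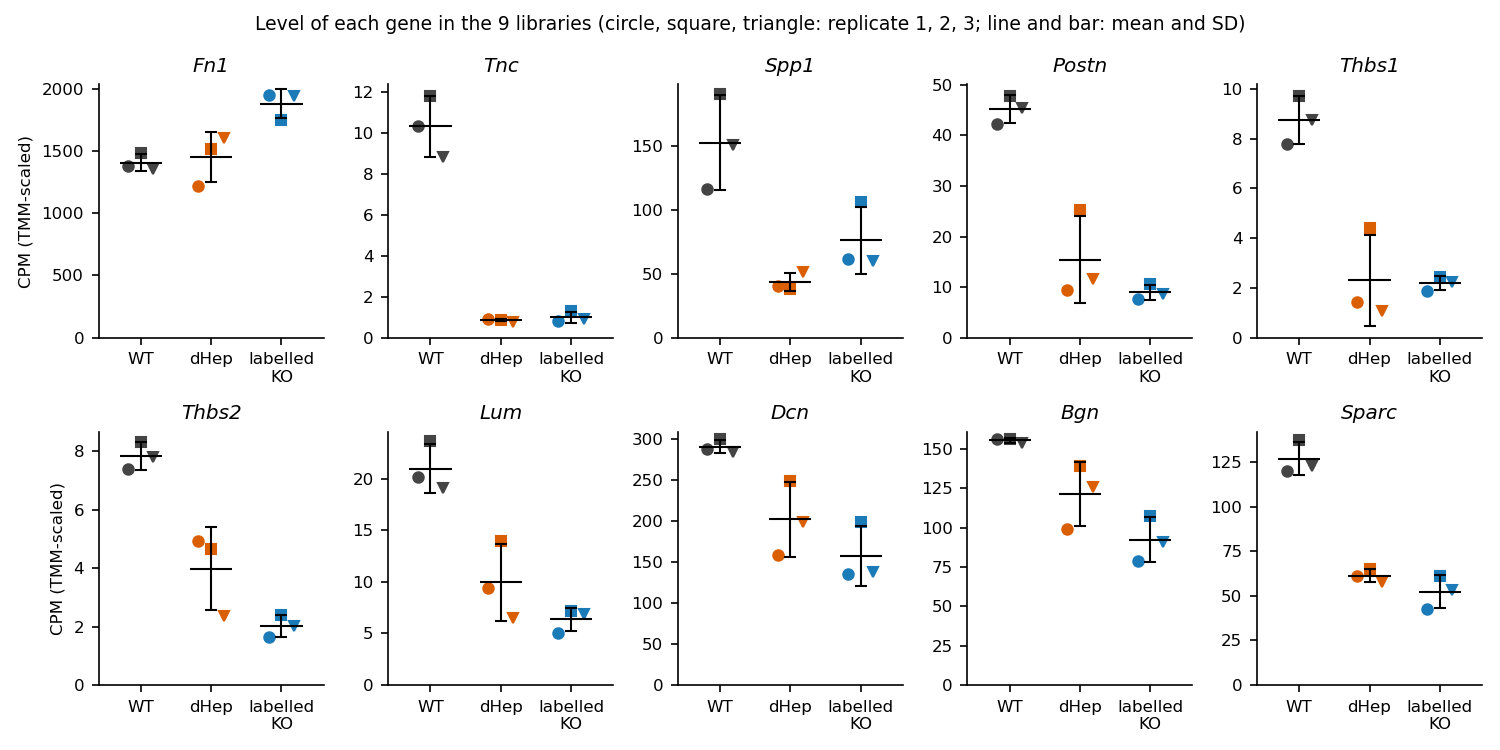
Each panel gives 1 gene in CPM with TMM-scaled library sizes (y axis from 0) in the WT, dHep and KO-labelled libraries (x axis), with points for single mice and lines and bars for the mean and SD of 3 mice. Tnc is at 8.81 CPM or more in WT and at 1.31 CPM or less in all other libraries, and Fn1 is the gene whose KO-labelled libraries, at 1748 to 1950 CPM, lie above WT.

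The comparison of KO-labelled livers with WT is meant, by its labels, to address loss of PAR2 in the whole body. F2rl1 counts were not lower in these libraries, and counts of the whole gene cannot show whether the receptor was lost. This comparison uses the same WT libraries as the comparison above, so the lists of changes are not independent. Of the 10 genes, 9 fell and 1 rose, where 43.0% of all genes tested were called, 22.1% lower and 20.9% higher. Tnc fell 10.1-fold and Postn 5.02-fold. Thbs1, Thbs2 and Lum fell 3.98-fold, 3.88-fold and 3.29-fold, and Sparc, Spp1, Dcn and Bgn by 2.42-fold, 2.00-fold, 1.85-fold and 1.68-fold. Fn1 rose 1.34-fold. The median log2 fold change was -1.50, against -0.01 for all genes tested.

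Tnc had 0.798, 1.31 and 0.923 CPM in KO-labelled livers, from 16 to 29 reads, and its log2 fold change against WT was -3.34 ± 0.23 (edgeR adjusted p = 4.36e-05). Postn had 7.75, 10.6 and 8.66 CPM there, without the high library seen in dHep (log2 fold change -2.33 ± 0.33, edgeR adjusted p = 0.000822). Thbs1 stood at 1.88, 2.44 and 2.25 CPM and Thbs2 at 1.64, 2.40 and 2.02 CPM. In neither gene did a library come near the WT range, and the log2 fold changes were -1.99 ± 0.44 (edgeR adjusted p = 0.00610) and -1.95 ± 0.28 (adjusted p = 0.000838).

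Lum had 5.07, 7.14 and 6.87 CPM in KO-labelled livers (log2 fold change -1.72 ± 0.26, edgeR adjusted p = 0.00100). Dcn had 135, 199 and 138 CPM and Bgn 78.7, 108 and 90.9 CPM, with replicate 2 highest in both. The log2 fold changes of these proteoglycans were -0.88 ± 0.19 and -0.75 ± 0.15 (edgeR adjusted p = 0.00539 and 0.00333). Sparc had 42.7, 61.3 and 53.0 CPM (log2 fold change -1.28 ± 0.13, edgeR adjusted p = 0.000241). For 9 genes every KO-labelled library lay below every WT library, as did 33.8% of all genes tested. All 9 falls passed under all 16 alternatives.

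Spp1 had 61.9, 106 and 60.3 CPM in KO-labelled livers, so that replicate 2 came close to the lowest WT library at 116 CPM. Its log2 fold change was -0.999 ± 0.25 (edgeR adjusted p = 0.0105). Fn1 had 1950, 1748 and 1942 CPM and no overlap with WT, a pattern that 32.4% of all genes tested showed in that direction. Its log2 fold change was 0.42 ± 0.14 (edgeR adjusted p = 0.0401). The call ended under 9 of 16 alternatives, among them leaving out any of the 6 WT or KO-labelled libraries (edgeR adjusted p = 0.0637 to 0.124; range over all alternatives 0.00296 to 0.124). With levels scaled to the sum of reads per kb, which moves the median of all genes by -0.37 (KO-labelled livers) and -0.28 (dHep), the log2 ratio of Fn1 over WT was 0.054 in KO-labelled livers and -0.26 in dHep.

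**Figure D3:**
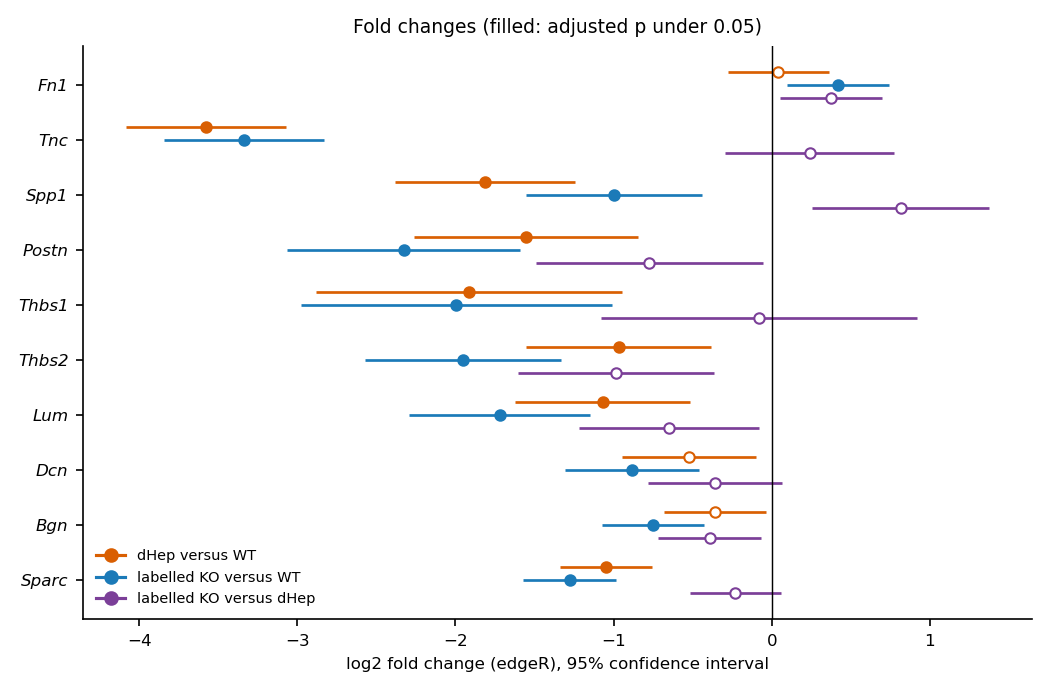
Points are edgeR log2 fold changes (x axis) of each gene (y axis) in the 3 comparisons, lines are 95% confidence intervals, and filled points passed an adjusted p under 0.05. Tnc lies near -3.5 in both comparisons with WT, Fn1 is to the right of 0 in the KO-labelled libraries against WT (0.42), and no point of the comparison of KO-labelled livers with dHep is filled.

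KO-labelled livers were also compared with dHep directly, which is the test of whether the changes against WT differ. Of the 10 genes 0 passed (edgeR adjusted p under 0.05), where 9.62% of all genes tested were called, 5.39% lower and 4.23% higher. At an unadjusted p under 0.05, 2 genes were higher and 4 lower, and the share of all genes at that threshold is not given here. DESeq2 called 2 higher and 1 lower, and over all genes tested it called 6.78% higher and 8.96% lower. The largest contrasts were in Spp1 and Thbs2, in opposite directions. Spp1 was 60.3 to 106 CPM in KO-labelled livers and 38.1 to 51.3 CPM in dHep, without overlap (log2 fold change 0.81, 95% interval 0.26 to 1.37, edgeR adjusted p = 0.0691). Among all genes tested, 13.9% were higher without overlap in this comparison. Thbs2 was 1.64 to 2.40 CPM against 2.35 to 4.95 CPM (log2 fold change -0.99, 95% interval -1.61 to -0.37, edgeR adjusted p = 0.0534).

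Both passed by DESeq2 (adjusted p = 0.0160 and 0.0127) and in edgeR without dHep replicate 3 (adjusted p = 0.0473 and 0.00577), over ranges of 0.0160 to 0.216 and 0.00577 to 0.174. Without that library Fn1 and Lum passed as well (edgeR adjusted p = 0.0446 and 0.0232), and Bgn passed without dHep replicate 1 (adjusted p = 0.0351). Postn, Lum and Bgn had log2 fold changes of -0.77, -0.65 and -0.39 with overlapping groups. Fn1 was higher by 0.38 without overlap, as were 13.9% of all genes tested (95% interval 0.055 to 0.70, edgeR adjusted p = 0.125). Tnc and Sparc had log2 fold changes of 0.24 (95% interval -0.30 to 0.77) and -0.23 (-0.52 to 0.061), and Thbs1 had the widest interval, -1.08 to 0.92 around -0.08.

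Which mouse was highest was shared by many of the 10 genes. WT replicate 2 was the highest WT library for all 10, and replicate 2 of KO-labelled livers was the highest of its group for 9, the exception being Fn1. In dHep, replicate 2 was highest for 6 genes (Postn, Thbs1, Lum, Dcn, Bgn and Sparc) and lowest for Spp1. The spread between mice differed by gene: Bgn varied 1.02-fold from the lowest to the highest WT library and Spp1 1.64-fold, while in dHep Thbs1 varied 4.09-fold, Postn 2.68-fold and Sparc 1.12-fold. In KO-labelled livers the ratio ran from 1.12 for Fn1 to 1.76 for Spp1.

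**Figure D4:**
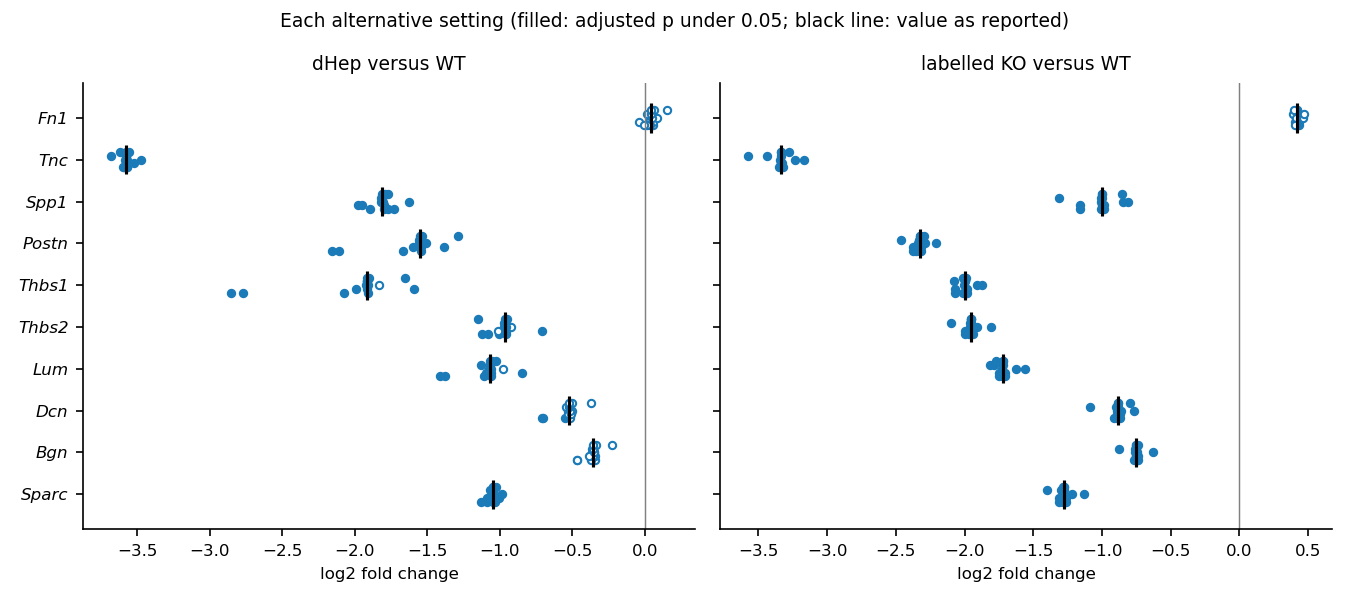
Each point is the log2 fold change (x axis) of 1 gene (y axis) against WT under 1 of 16 alternative settings or left-out libraries, filled where the adjusted p was under 0.05, and the black line is the value given in the text. In dHep the values of Thbs1 run from -2.85 to -1.59 and those of Tnc only from -3.68 to -3.47, and no gene with a called fall has a point right of 0.

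Markers of other cells moved beside these genes. The 15 stellate cell and fibroblast markers summed to between 448 and 522 CPM in WT, between 226 and 351 CPM in dHep and between 197 and 235 CPM in KO-labelled livers. Of these 15, 7 fell in dHep and 10 in KO-labelled livers, and 0 rose in either. Among all genes tested 11.9% and 22.1% fell, the background for the other marker lists too. The list includes collagen genes, and in dHep Col1a1, Col1a2 and Col3a1 had log2 fold changes of -2.45, -1.87 and -2.37. Pdgfrb, Pdgfra, Dpt and Tagln also fell there (-1.06, -0.67, -0.94 and -1.36). Not called in dHep were Lrat (-0.22), Colec11 (-0.08), Reln (-0.14), Ngfr (-0.26), Hand2 (0.02), Rgs5 (-0.50), Acta2 (-1.03) and Des (1.70). In KO-labelled livers Lrat, Colec11 and Reln fell as well (-1.51, -0.60 and -0.54). Not called in KO-labelled livers were Ngfr (-0.22), Hand2 (0.05), Rgs5 (-1.14), Acta2 (0.04) and Des (0.71). The summed level of the 15 stellate cell and fibroblast markers was 0.470 to 0.730 of its WT mean in the 3 dHep libraries. The 11 macrophage markers in the table summed to between 408 and 522 CPM in WT, between 226 and 415 CPM in dHep and between 102 and 187 CPM in KO-labelled livers, and 6 and 8 of the 11 fell. In dHep the falls were in Gpnmb (log2 fold change -4.85), Itgax (-2.81), Trem2 (-1.93), Cd9 (-1.82), Cd68 (-1.03) and Cd5l (-0.95). Not called there were Csf1r (-0.82), Clec4f (-0.09), Vsig4 (0.22), Marco (0.39) and Timd4 (1.03). The 8 sinusoidal endothelial markers summed to 340 to 369, 233 to 314 and 154 to 226 CPM, with 3 and 7 falls. Of 8 hepatocyte markers, 4 rose and 1 fell in dHep, and 1 rose and 1 fell in KO-labelled livers. Among all genes tested 12.4% and 20.9% rose. Cyp3a11 was the fall in both (-1.83 and -1.91), and Apoa1 rose in both (1.02 and 1.13). The part of these cell types in the results was not tested.

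Bile duct cells are a source of osteopontin. The 9 cholangiocyte markers summed to between 25.6 and 27.0 CPM in WT, between 28.8 and 32.0 CPM in dHep and between 27.9 and 65.1 CPM in KO-labelled livers, and of the 7 tested 0 fell in either comparison with WT and 3 rose in KO-labelled livers (edgeR). The highest cholangiocyte sum was in KO replicate 1, where Epcam was at 17.0 CPM, against 1.90 and 0.981 CPM in KO replicates 2 and 3. Spp1 was highest of that group in replicate 2. The part of these cells in the Spp1 level was not tested. Platelet markers, relevant to Thbs1, summed to 1.88 to 4.32 CPM over all libraries, and mesothelial markers to 3.31 to 11.2 CPM with the highest sum in dHep replicate 2. No gene of any marker list was at 0 in all 9 libraries.

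**Figure D5:**
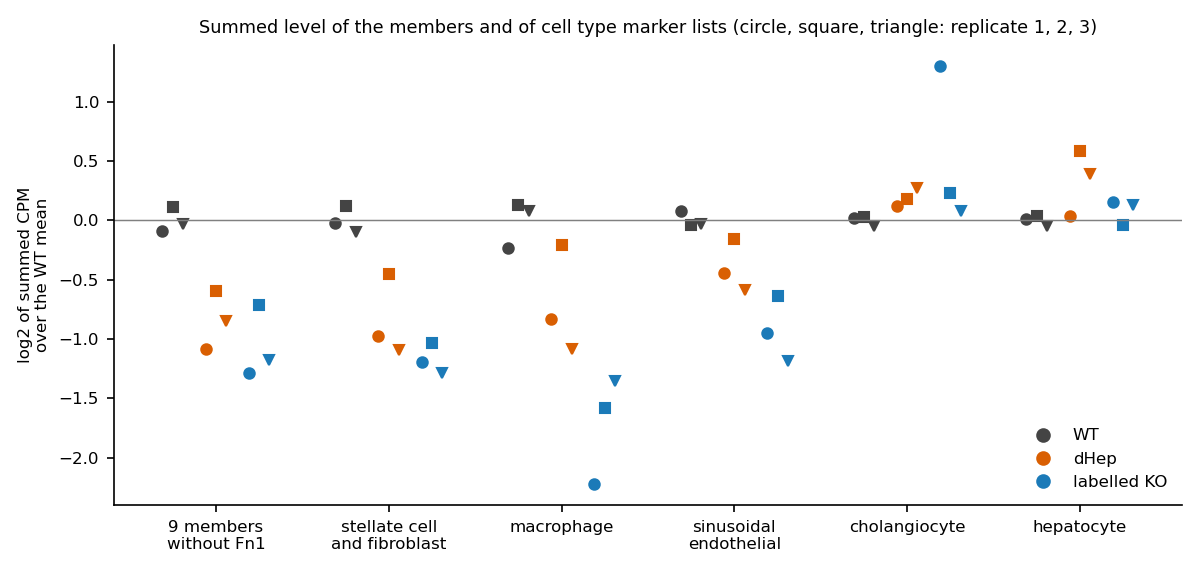
Points are single libraries, and the y axis is the log2 ratio of summed CPM to the WT mean for the 9 genes without Fn1 and for 5 lists of cell type markers (x axis). In dHep and KO-labelled libraries the 9 genes stand at 0.410 to 0.661 of the WT mean, the stellate list at 0.410 to 0.730, the macrophage list at 0.214 to 0.867, and the cholangiocyte list at 1.05 or more.

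Other matrix glycoproteins were examined as a list of 52, of which 45 were tested. In dHep 17 fell and 1 rose, and in KO-labelled livers 21 fell and 1 rose, where 11.9% and 22.1% of all genes tested fell and 12.4% and 20.9% rose. Their median log2 fold change was -0.44 and -0.68, against 0.02 and -0.01 for all genes tested. Nidogen-1, which joins laminin to collagen in basement membranes, fell in dHep (Nid1 log2 fold change -1.95 ± 0.20, edgeR adjusted p = 0.000486) and in KO-labelled livers (-2.40 ± 0.20, adjusted p = 0.000146). Fibrillin-1, the core of elastic microfibrils, also fell (Fbn1 -1.71 ± 0.18 and -1.67 ± 0.19).

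The 1 riser in both was vitronectin, an adhesive plasma glycoprotein that hepatocytes secrete. Vtn averaged 1299 CPM in WT, 2244 in dHep and 2827 in KO-labelled livers, with log2 fold changes of 0.79 ± 0.20 (edgeR adjusted p = 0.0215) and 1.12 ± 0.20 (adjusted p = 0.00253). The dHep call for Vtn ended without WT replicate 1, 2 or 3, in the fit of only the 2 groups compared, and when WT replicate 1 and dHep replicate 2 were both omitted. Between KO-labelled livers and dHep, 1 of the 45 was higher, Ltbp1, which tethers latent TGF-beta (1.18 ± 0.25), and 2 were lower, the basement membrane gene Nid2 (-1.07 ± 0.19) and Tgfbi (-0.67 ± 0.16). Fitting only the 2 groups compared ended each of these 3 calls, as did leaving out KO replicate 3 (Ltbp1, Nid2 and Tgfbi). That of Ltbp1 also ended without KO replicate 2, that of Tgfbi without any 1 WT library, dHep replicate 2 or KO replicate 1, and those of Nid2 and Tgfbi without WT replicate 1 and dHep replicate 2 together. Without WT replicate 1 and dHep replicate 2 together, 18 fell and 0 rose in dHep, and 0 were lower in KO-labelled livers than in dHep.

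Of 21 other proteoglycans tested, 5 fell and 2 rose in dHep and 7 fell and 4 rose in KO-labelled livers. The shares of all genes tested that fell were 11.9% and 22.1%. The shares that rose were 12.4% and 20.9%, so the number of rises in this list was near the background. The list's median was 0.01 in dHep (-0.34 without WT replicate 1 and dHep replicate 2, with 7 falls and 1 rise) and -0.49 in KO-labelled livers. Versican, a large chondroitin sulfate proteoglycan, fell in dHep (Vcan -2.60 ± 0.48, from 0.942 to 0.147 CPM), as did the glypican gene Gpc6 (-1.65 ± 0.30). In KO-labelled livers, Gpc1 (-1.61 ± 0.17) and serglycin, the proteoglycan of blood cell granules (Srgn -1.14 ± 0.18), fell. Each of these genes was also called lower in the other comparison with WT. Vcan and Gpc6 were at -2.81 ± 0.51 and -1.74 ± 0.30 in KO-labelled livers. Gpc1 and Srgn were at -0.85 ± 0.16 and -0.56 ± 0.18 in dHep (edgeR adjusted p = 0.00616 and 0.0458). The syndecans Sdc2 and Sdc4, heparan sulfate proteoglycans of the cell surface, rose in dHep (0.49 ± 0.11 and 0.56 ± 0.14) and in KO-labelled livers (0.50 ± 0.11 and 0.79 ± 0.14). Both dHep calls ended without WT replicate 2 or WT replicate 3, that of Sdc4 also without dHep replicate 3 and in the fit of only the 2 groups compared, and that of Sdc2 also when WT replicate 1 and dHep replicate 2 were both omitted. Osteomodulin, Omd, was higher in KO-labelled livers than in dHep (1.53 ± 0.34) and Gpc1 lower (-0.75 ± 0.16). The Omd call ended without dHep replicate 1 or 2 or KO replicate 2 or 3, and the Gpc1 call without KO replicate 1 or 2. Both also ended when only the 2 groups compared were fitted and when WT replicate 1 and dHep replicate 2 were both omitted.

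Receptors for these matrix proteins fell in 10 of 22 tested genes in dHep and rose in 1, and fell in 13 and rose in 2 in KO-labelled livers, with medians of -0.63 and -0.88. Over all genes tested, 11.9% fell in the first comparison and 22.1% in the other. Cd36, which binds thrombospondins and takes up fatty acids, fell in both (-2.71 ± 0.20 and -2.85 ± 0.20). Integrin genes fell too. Itga8, a tenascin and osteopontin receptor chain of stellate cells, was at -1.55 ± 0.20 in dHep and -1.45 ± 0.20 in KO-labelled livers. Itga9, whose product also binds tenascin-C and osteopontin, was at -0.70 ± 0.20 in dHep (edgeR adjusted p = 0.0295). In KO-labelled livers Itga9 was at -1.69 ± 0.20. The fibronectin receptor chain Itga5 rose in KO-labelled livers (0.51 ± 0.14, adjusted p = 0.0175), a call that ended without WT replicate 1 or WT replicate 3, and when WT replicate 1 and dHep replicate 2 were both omitted. Lrp1, a scavenger receptor for many matrix ligands, rose in both (0.59 ± 0.11 and 0.85 ± 0.11). Itga9 was the 1 receptor gene that differed between KO-labelled livers and dHep (-0.996 ± 0.20), and its call ended without KO replicate 3 and in the fit of only the 2 groups compared.

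Of 20 genes of TGF-beta signalling, a pathway that drives matrix gene expression, 4 fell in dHep and 8 in KO-labelled livers (6 and 7 without WT replicate 1 and dHep replicate 2), where 11.9% and 22.1% of all genes tested fell. The list's median was -0.28 and -0.41, against 0.02 and -0.01 for all genes tested. The ligand gene Tgfb2 averaged 1.88 CPM in WT and fell in both other groups, where it averaged 0.540 CPM (dHep, -1.80 ± 0.32) and 0.490 CPM (KO-labelled livers, -1.92 ± 0.33). The receptor gene Tgfbr2 fell by 0.97 ± 0.22 and 1.24 ± 0.22. The dHep call for Tgfbr2 ended without WT replicate 2.

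The gene with the most similar profile was sought for each member among 11832 others, as the smallest root mean square difference of centred log2 CPM over the 9 libraries. Dcn was nearest to Prelp, another leucine-rich proteoglycan (0.0955 log2 units), and Dcn and Bgn were each other's nearest member (0.114), at ranks 4 and 3 among all genes. Lum and Thbs2 were also each other's nearest member (0.217). Postn was nearest to Matn2, a matrix glycoprotein of the matrilin family (0.194), and Thbs1 to Plat, tissue plasminogen activator (0.185). Tnc was nearest to Kbtbd11 (0.355), which averaged 17.6 CPM in WT, 1.35 in dHep and 1.15 in KO-labelled livers, and its nearest member was Thbs1 (0.785). This distance grows with a gene's own range, which was 3.78 log2 units for Tnc and 0.67 for Fn1, so distances of different members are not ranked. Fn1 was nearest to the phosphate transporter gene Slc20a2 (0.0642) and its nearest member was Bgn at 0.515, which was rank 8695 of 11832. Spp1, Thbs2, Lum, Bgn and Sparc were nearest to Kctd17 (0.243), Msr1 (0.113), Igsf6 (0.106), Elk3 (0.0918) and Incenp (0.106).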

How the data were processed

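Per the labels, poly(A) RNA of whole liver went into stranded libraries. Per the submitters' processing notes, FastQC and HISAT2 2.1.0 (build mm10) were used. The authors deposited raw read counts per gene, made by featureCounts 1.6.2 with strand setting 2, and gene lengths in bases (a value of other kind), per the file headers.

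Genes passing filterByExpr (minimum count 10, minimum total 15) were fitted with edgeR 4.0.16 in R 4.3.3, using all 9 libraries, TMM scaling, group means and quasi-likelihood tests. Benjamini-Hochberg adjustment covered all 13141 genes (threshold 0.05). An SE is the log2 fold change over the square root of F. The procedure was checked on simulated data. With 3 mice per group an exact permutation test of 1 gene cannot go below p = 0.1. Whether mice of a group shared a litter or cage is not stated, so p-values measure only the spread between these samples.

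Members and lists were chosen with earlier results of these data known. Named genes are the members, F2rl1, up to 2 called genes with the smallest p per list, comparison and direction, and each member's nearest gene (mean of at least 1 CPM, prior count 2). The alternatives, 16 in all, were median-of-ratios size factors, DESeq2 1.42.0, no filter, a filter of 1 CPM in 3 libraries, fits of only the groups compared, a replicate block, and each library left out. Omitting WT replicate 1 with dHep replicate 2 was added after seeing the data.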

Additional observations from a re-analysis of the deposited data

How the results depend on the processing

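Of 30 values (10 genes in 3 comparisons), 16 kept their direction and their side of the threshold under all 16 alternatives. The number of genes that fell in dHep was 7 and ran from 4 (without WT replicate 2) to 9 (without dHep replicate 2) as single libraries were left out. The 1 rise in KO-labelled livers against WT, Fn1, was 0 with no filter on low counts, with the replicate block and when WT replicate 1 and dHep replicate 2 were both omitted, and 0 to 1 with single libraries left out. Between KO-labelled livers and dHep, DESeq2 called 1 lower and 2 higher (8.96% and 6.78% of all genes tested), and leaving out single libraries gave 0 to 2 lower and 0 to 2 higher.

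Uncalled values changed sign as follows. Fn1 in dHep was 0.04, ran from -0.039 (without dHep replicate 3) to 0.15 (without dHep replicate 1), and was -0.0059 with WT replicate 1 and dHep replicate 2 omitted. Thbs1 in KO-labelled livers against dHep was 0.065 with the replicate block, 0.037 without KO replicate 1 and 0.78 with WT replicate 1 and dHep replicate 2 omitted, and ran from -0.40 (without dHep replicate 3) to 0.78 (without dHep replicate 2). Tnc ran from -0.0011 (without KO replicate 2) to 0.40 (without KO replicate 1). The causes were not tested.

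Scaling by the sum of reads per kb, as TPM does, moved the median log2 ratio of all genes by -0.28 in dHep and -0.37 in KO-labelled livers. Log2 ratios of mean levels over WT then became -0.26 (Fn1), -3.87 (Tnc), -0.66 (Bgn) and -1.33 (Sparc) in dHep. In KO-labelled livers they became 0.054 (Fn1), -2.70 (Postn), -2.36 (Thbs1), -2.33 (Thbs2), -2.09 (Lum), -1.25 (Dcn), -1.12 (Bgn) and -1.64 (Sparc). Against the median of all genes, Fn1 was 0.010 higher in dHep and 0.43 higher in KO-labelled livers on that scale.

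Same-numbered libraries of different groups did not deviate together (correlation over genes -0.33 to 0.034), and 0 of 9 libraries correlated best with their own number, so the numbers were not used as pairs. With the replicate block 8 genes fell in dHep and 9 in KO-labelled livers. Over all genes tested, the share called over the alternatives ran from 4.55% to 15.5% higher and 5.65% to 14.8% lower in dHep, from 13.5% to 28.5% and 15.2% to 29.8% in KO-labelled livers, and from 1.21% to 9.78% and 1.51% to 11.1% between them.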
